A study of Homo sapiens with 8 samples.

Results

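The sites described here are HoxC5 peaks that were listed in PC-3 cells overexpressing HoxC5 but not in unmodified PC-3 cells. They lay away from the start sites of protein-coding transcripts and overlapped no Pbx4 peak. They were chosen by the measured peak lists. A peak of the overexpressed HoxC5 library on chromosomes 1 to 22 or X was kept when it overlapped no HoxC5 peak of unmodified cells, overlapped no Pbx4 peak, and had its summit more than 1 kb from every protein-coding transcriptional start site (TSS). Of the 67196 peaks in the list, 67169 lay on these chromosomes, 65217 of them were gained over the unmodified cells, and 51861 of the gained peaks were distal. Among the gained distal peaks, 12956 (24.98%) lacked Pbx4 and are the sites of this report, while 38905 overlapped a Pbx4 peak and served for comparison. Over the whole list, 21695 peaks (32.3%) overlapped no Pbx4 peak.

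The cells were PC-3, a line established from a human prostate cancer. An antibody to HoxC5 was used on unmodified PC-3 cells (genotype control, 2 libraries labelled replicates 1 and 2) and on PC-3 cells with Hoxc5 overexpression (1 library), in which the study describes the added protein as Flag-tagged. An antibody to Pbx4 was used on PC-3 cells with Pbx4 overexpression (1 library), so that HoxC5 and Pbx4 were not measured in the same cells. A site without Pbx4 is therefore one that no peak covered in the Pbx4-overexpressing cells, and a gained site is one that no peak of the much shorter endogenous lists covered, where HoxC5 may also have been below the limit of the call. The 4 lists differed in length and in their limit, from 170 peaks in endogenous replicate 2 to 2525 in replicate 1 and 153620 for Pbx4, and the highest q-value was 0.00997 for overexpressed HoxC5 and 0.0490 for Pbx4. The depth of each library is unknown here, and with 1 library per overexpressed condition the comparisons below are between sites of these libraries, not between conditions. Sites are not replicates, and each p-value compares sites within 1 HoxC5 library, the overexpressed one unless endogenous replicate 1 is named.

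HoxC5 belongs to the Hox family of homeodomain transcription factors, which give cells their position along the body axis. Hox proteins on their own recognise short AT-rich sequences, and they gain specificity by binding DNA together with the TALE homeodomain proteins of the Pbx and Meis families, of which Pbx4 is one. Distal regulatory sites also carry sequences of other proteins, such as AP-1, the dimer of FOS and JUN proteins that is found at many enhancers of epithelial cancer cells, and CTCF, the zinc finger protein that marks insulators and anchors chromatin loops.

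The sites that the results turn on are shown first, each as 101 bases of the plus strand of GRCh37 centred on the summit and named by the nearest protein-coding gene. In the sequences of this first set the capitals mark the CTCF core, a word of 12 letters. They are among the sites of lowest q-value that hold it.
CLDN10, chr13:96033066-96033166: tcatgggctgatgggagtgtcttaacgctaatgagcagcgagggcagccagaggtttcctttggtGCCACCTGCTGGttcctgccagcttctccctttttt
TEX13A, chrX:104166963-104167063: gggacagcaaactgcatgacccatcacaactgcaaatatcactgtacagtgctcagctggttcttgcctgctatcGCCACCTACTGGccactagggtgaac
EFCAB10, chr7:105230081-105230181: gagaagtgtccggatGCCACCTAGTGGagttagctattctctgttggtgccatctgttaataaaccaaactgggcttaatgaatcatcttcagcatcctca
The site near CLDN10, which encodes a claudin of tight junctions, lay between genes, 52.7 kb from the TSS, with a fold enrichment of 22.9. The site near TEX13A lay in an intron of IL1RAPL2, 298 kb from the TSS, with a fold enrichment of 22.3. The site of EFCAB10 lay in an intron of that gene, 1.84 kb from its TSS, with a fold enrichment of 12.4. Their gaps to the nearest Pbx4 peak were 1509, 6948 and 10795 bp.

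In the second set the capitals mark the AP-1 word TGACTCA or its complement TGAGTCA, again in sites among those of lowest q-value that hold it.
LSAMP, chr3:115860742-115860842: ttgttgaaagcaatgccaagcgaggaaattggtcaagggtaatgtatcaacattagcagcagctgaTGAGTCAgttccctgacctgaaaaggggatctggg
CDIN1, chr15:36605381-36605481: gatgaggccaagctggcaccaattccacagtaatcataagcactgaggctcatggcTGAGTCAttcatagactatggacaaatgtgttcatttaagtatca
DAAM1, chr14:59792801-59792901: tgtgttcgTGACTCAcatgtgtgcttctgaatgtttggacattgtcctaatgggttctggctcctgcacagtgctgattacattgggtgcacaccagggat
LSAMP encodes a neural cell adhesion protein and DAAM1 a formin of Wnt signalling. Their sites lay in introns of these genes, 303 kb and 62.7 kb from the TSS, with fold enrichments of 21.0 and 13.0. The site near CDIN1 lay between genes, 266 kb from the TSS, with a fold enrichment of 16.5. The LSAMP site was 81731 bp from the nearest Pbx4 peak, the CDIN1 site 10886 bp and the DAAM1 site 2157 bp.

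The third set shows the composite Hox-Pbx word TGATTGAT, or its complement ATCAATCA, in capitals. The word is shown because Pbx proteins are known to bind it with Hox proteins, whereas these sites lacked Pbx4.
SHANK2, chr11:70313737-70313837: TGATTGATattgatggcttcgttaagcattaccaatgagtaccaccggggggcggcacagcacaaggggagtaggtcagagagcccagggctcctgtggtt
CCDC91, chr12:28940263-28940363: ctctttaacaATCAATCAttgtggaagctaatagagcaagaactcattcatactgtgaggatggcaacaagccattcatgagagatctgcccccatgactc
MAP4, chr3:48105824-48105924: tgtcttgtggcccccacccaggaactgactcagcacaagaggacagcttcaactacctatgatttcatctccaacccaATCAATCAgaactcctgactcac
SHANK2 encodes a scaffold protein of synapses and MAP4 a microtubule-associated protein. The fold enrichments were 27.4 near SHANK2, 10.8 near CCDC91 and 16.1 at MAP4. The MAP4 site was 21 bp from a Pbx4 peak and the others were 13733 and 6707 bp away.

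The last set shows 4 of the 12 sites of lowest q-value in the whole group, with capitals for any of the 30 words sought in them.
ASF1B, chr19:14248404-14248504: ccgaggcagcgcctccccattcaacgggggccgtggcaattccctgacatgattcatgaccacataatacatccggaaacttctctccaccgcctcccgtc
ADAM19, chr5:156990467-156990567: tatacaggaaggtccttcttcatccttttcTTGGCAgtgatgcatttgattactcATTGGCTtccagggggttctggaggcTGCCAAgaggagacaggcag
APP, chr21:27268236-27268336: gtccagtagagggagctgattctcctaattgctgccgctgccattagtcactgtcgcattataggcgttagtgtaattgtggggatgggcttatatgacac
ARHGAP26, chr5:142522344-142522444: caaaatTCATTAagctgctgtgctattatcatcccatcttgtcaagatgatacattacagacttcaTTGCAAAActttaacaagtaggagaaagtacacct
The strongest site by q-value was 1053 bp upstream of the TSS of ASF1B, which encodes a histone chaperone, in an intron of the non-coding gene ADGRL1-AS1. The fold enrichment there was 30.6 with a −log10 q of 151.7, and the site ranked 37 in the list by q-value. It held none of the 30 words and was 142 bp from a Pbx4 peak. The site in ADAM19, a metalloprotease gene, had a fold enrichment of 20.1, the one in APP, the gene of the amyloid precursor protein, 25.2, and the one in an intron of ARHGAP26 26.6. Among the 12 sites of lowest q-value, none held the CTCF core, 2 held the AP-1 word and 1 held the composite Hox-Pbx word. Over all sites the shares were 8.32, 11.3 and 0.888%, and 12 sites are too few to set against them. With 1 mismatch allowed, the APP site held the CTCF core, as did the sites near CCDC85C and SHANK2.

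The fold enrichment of a peak is its signal over the local background as MACS2, the authors' peak caller, gives it. Since the rule used these lists, folds and widths are given as a description. The median fold enrichment of the sites was 5.75, with quartiles of 4.72 and 7.08 and a range from 2.23 to 30.6, and that of the gained distal peaks with Pbx4 was 6.61. The median −log10 q was 8.14 without Pbx4 and 11.5 with it, and the median width was 176 and 235 bp. The sites without Pbx4 thus lay lower in the list on average, although the strongest of them were among its leading peaks. The median distance to a protein-coding TSS was 30.8 kb without Pbx4 and 38.4 kb with it.

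The gap to the nearest Pbx4 peak had a median of 4268 bp. It was under 200 bp for 740 sites and over 5 kb for 5998 (46.3%). At the edge of the rule, 74 sites lay within 20 bp of a Pbx4 peak, and 103 of the compared peaks overlapped Pbx4 by 20 bp or less. Near the limit of distance, 534 sites had their summit 1000 to 1500 bp from a TSS, and 1253 gained peaks without Pbx4 at 500 to 1000 bp were not counted. The sites nearest to a TSS were those of LAMA3, MSTO1 and ATP8B2, each at 1002 bp, with fold enrichments of 11.7, 8.71 and 4.67. Just inside 1 kb, at 999 bp, lay peaks of KCNIP2, MAPKAPK3 and LHB, with fold enrichments of 4.04, 4.04 and 5.23. The farthest site was 2610 kb from its nearest TSS, that of PCDH7, and held the AP-1 word.

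Under 200 bp from a Pbx4 peak lay 740 sites (5.71%). The classes of distance differ in width, so their counts are not densities, and the rule left out every peak that overlapped Pbx4. The CTCF core was in 5.81% of the summits under 200 bp from Pbx4, in 9.92% of those at 2000 to 5000 bp and in 7.99% of those over 20000 bp away. The AP-1 word was in 7.43% of the nearest sites and 15.1% of the farthest. Both words were thus found in every class of distance.

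Of the 30 words, the CTCF core had the largest excess in the sites over the gained distal peaks with Pbx4, and AP-1 the largest deficit. The CTCF core lay within 50 bp of the summit in 1078 of the 12956 sites (8.32%, exact 95% interval 7.85 to 8.81%), in 8 (0.0618%) of the windows of the same length 1 kb to the right, and in 350 of the 38905 summits with Pbx4 (0.900%, interval 0.808 to 0.999%). The intervals cover counting error only. The excess over the flank was 8.26 percentage points (two-sided exact McNemar test, adjusted over the 30 words by the Benjamini-Hochberg method, adjusted p = 3e-299, where p-values under 1e-300 were set to that number). The excess over the peaks with Pbx4 was 7.42 points (two-sided Fisher's exact test with the same adjustment, adjusted p = 1.5e-299). With up to 1 mismatch allowed in the core, which was chosen after the data were seen, the shares were 23.5% at the summits, 0.764% in the flanks and 3.37% with Pbx4.

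The AP-1 word was in 1465 of the sites without Pbx4 (11.3%, interval 10.8 to 11.9%) and in 11200 of those with Pbx4 (28.8%, interval 28.3 to 29.2%), a difference of -17.5 percentage points (Fisher's exact test, adjusted p = 1.5e-299). The sites without Pbx4 still held it far more often than their flanks, where it was in 1.79% of the windows (exact McNemar test, adjusted p = 1.7e-227). The flanks of the peaks with Pbx4 had it in 1.82%. Only 19 sites held both the CTCF core and the AP-1 word, where 121.9 would hold both if the words were independent of each other.

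Sites with the CTCF core and sites with AP-1 were of like strength, with a median fold enrichment of 6.14 in each group, against 5.67 for the 10432 sites with neither. They differed in place. The median distance to a TSS was 23.0 kb with the CTCF core and 48.6 kb with AP-1. The median percentage of G and C in the window was 52.5 and 46.5, and 44.2% of the CTCF sites and 49.7% of the AP-1 sites had another HoxC5 peak within 10 kb, against 57.0% of the sites with neither.

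**Figure D1:**
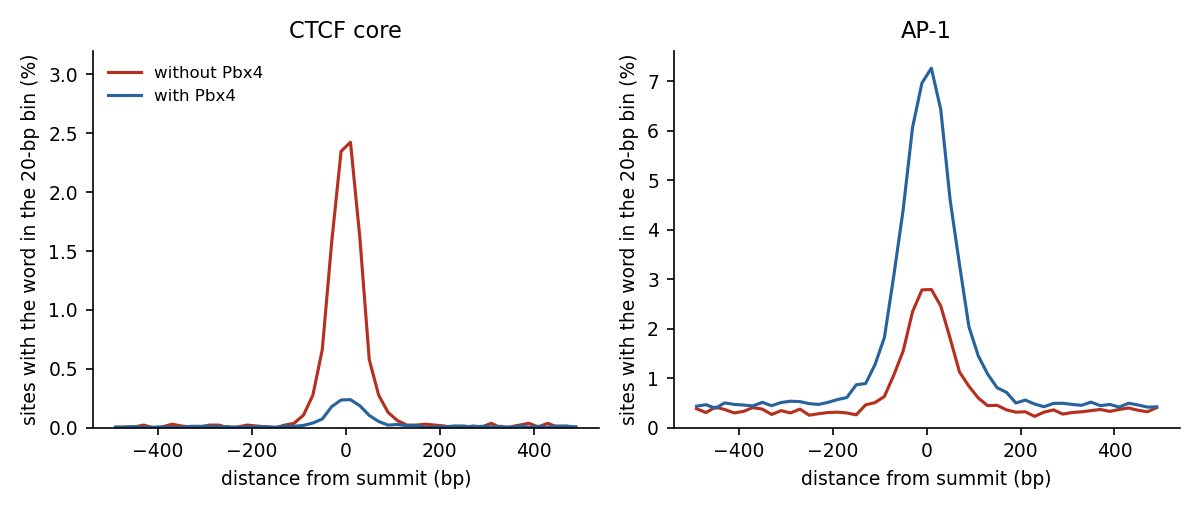
Percentage of sites whose CTCF core (left) or AP-1 word (right) has its centre in each 20-bp bin of distance from the HoxC5 summit, for gained distal sites without Pbx4 (red) and with Pbx4 (blue). Without Pbx4 the CTCF core reaches 2.42% in the bin just right of the summit and the AP-1 word 2.79%, against 0.239% and 7.26% with Pbx4.

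The plot by position shows a single peak over the summit for each word. It falls to the level of the flanks within about 200 bp. Around the summit the red curve is higher for CTCF and the blue curve for AP-1.

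Since sites with Pbx4 had higher folds, all gained distal peaks were also split by fold enrichment into 5 classes of near-equal size. Without Pbx4 the CTCF core was in 6.70% of the summits in the class of lowest fold, then in 7.16, 8.42, 11.0 and 10.2%. With Pbx4 it was in 0.656 to 1.15% of the summits of a class. The AP-1 word rose from 8.74 to 14.5% without Pbx4 and from 23.4 to 33.3% with it. In no class did the intervals of the groups overlap for either word. Within these classes the differences were 7.37 points for the CTCF core and -16.2 points for AP-1, and both stayed past the adjusted threshold of 0.05 in a Cochran-Mantel-Haenszel test.

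**Figure D2:**
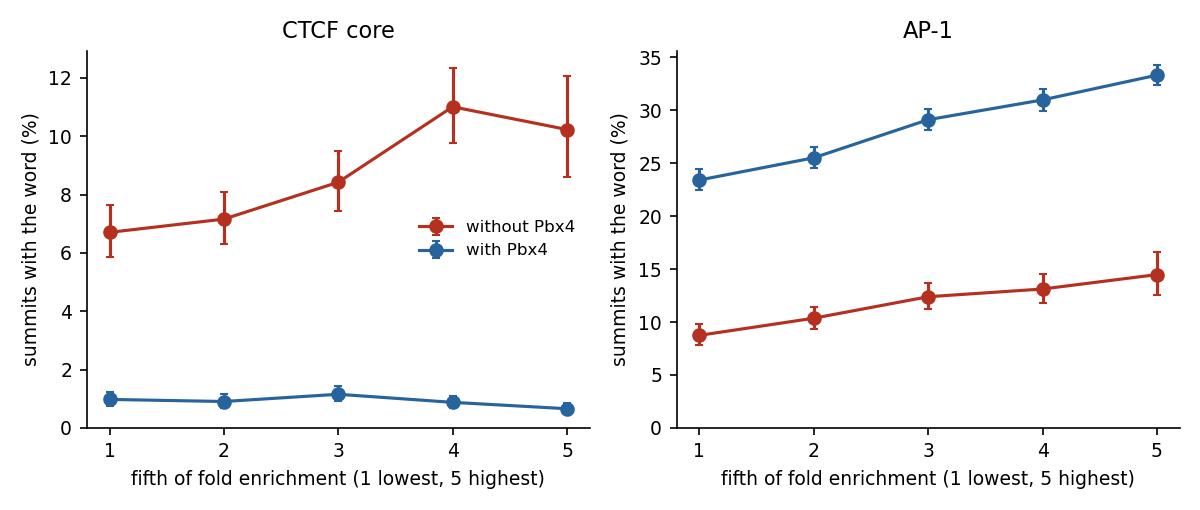
Percentage of summits with the CTCF core (left) and with the AP-1 word (right) in 5 classes of fold enrichment, for gained distal sites without Pbx4 (red) and with Pbx4 (blue), with exact 95% intervals. The CTCF share without Pbx4 is 6.70 to 11.0%, above the 0.656 to 1.15% with Pbx4 in every class.

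The homeodomain words gave smaller differences. TAATGA was in 8.82% of the sites, 5.68% of their flanks and 10.2% of the peaks with Pbx4. It was thus more frequent than in the flank by 3.14 points (exact McNemar test, adjusted p = 9.67e-22) and less frequent than with Pbx4 by 1.39 points (Fisher's exact test, adjusted p = 6.4e-06). TAATTA was below its flank, with 2.61% at the summits and 3.84% in the flanks (exact McNemar test, adjusted p = 4.84e-08). CAATAAA, a word of posterior Hox proteins, was also below its flank, at 2.04 against 2.58% (exact McNemar test, adjusted p = 0.00673).

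For the composite Hox-Pbx word TGATTGAT no difference between sites without and with Pbx4 was found. It was in 115 sites without Pbx4 (0.888%, interval 0.733 to 1.07%) and in 0.897% with Pbx4 (interval 0.806 to 0.996%), with an adjusted p of 0.969 by Fisher's exact test. Over the flank, at 0.309%, it was more frequent (exact McNemar test, adjusted p = 3.05e-09). Within the classes of fold the same comparison gave 0.18 points more without Pbx4, and there it passed the adjusted threshold of 0.05 in a Cochran-Mantel-Haenszel test, which changes the call. In the class of highest fold the intervals overlapped. There the word stood in 2.46% (1.66 to 3.49%) of the summits without Pbx4 and in 1.77% (1.51 to 2.06%) of those with Pbx4. The sites that held it had a median fold enrichment of 6.93. The variants TGATTAAT and TGATTTAT were both less frequent without Pbx4, at 0.641 against 1.05% and 0.455 against 0.879%. The Meis word TGACAG was in 7.04% without and 9.14% with Pbx4, and the Pbx-Meis word TGATTGAC in 0.170 and 0.260%, where the test gave an adjusted p of 0.099.

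Some homeodomain words were more frequent in the strongest sites. In the class of lowest −log10 q, of 5 classes of the sites, TAATGA was in 7.18% of the summits (interval 6.21 to 8.24%) and in the class of highest −log10 q in 11.9% (10.7 to 13.2%). TGATTGAT went from 0.579% (0.324 to 0.953%) to 1.93% (1.44 to 2.54%), and TAATTA from 2.16% (1.64 to 2.80%) to 3.78% (3.08 to 4.59%). The flanks of these classes held TAATTA in 3.51 and 3.705%, so that it was near its flank in the class of highest −log10 q and below it in the lowest. For the Meis word the intervals of these classes overlapped, at 6.29% (5.38 to 7.29%) and 7.99% (6.97 to 9.10%). Peaks with Pbx4 in their own 5 classes also went from 8.48 to 13.3% for TAATGA and from 0.514 to 1.98% for TGATTGAT, while TAATTA was in 2.24 and 2.34%. Over the classes of the sites without Pbx4 the CTCF core went from 4.40 to 11.0% and AP-1 from 8.91 to 13.4%. Among the sites without Pbx4, the intervals of the lowest and highest class did not overlap for any of these words except that of Meis. In the 500 sites of lowest q-value, TAATGA was in 13.4%, AP-1 in 13.0%, the CTCF core in 9.60%, TGATTGAT in 3.60% and CAATAAA in 1.80%. In the 500 peaks with Pbx4 of lowest q-value the shares were 17.2, 30.2, 0.400, 7.20 and 2.60%. The Meis word was in 7.80% of the 500 without Pbx4 and 17.6% of the 500 with it. These sets of 500 were not tested against each other, and they are a smaller part of the peaks with Pbx4 than of the sites.

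Of all 30 words, 18 (60.0%) were more frequent at the summits than in the flanks, 4 were less frequent and 8 did not pass the test. Against the peaks with Pbx4, 9 words (30.0%) were more frequent without Pbx4, 13 were less frequent and 8 did not pass. The CTCF core led the 9. CCCCGCCC, bound by SP and KLF factors, was in 1.78% without Pbx4 and 0.542% with it (adjusted p = 6.93e-34 by Fisher's exact test). The ETS word CCGGAAGT was in 0.340 and 0.162%, the YY1 word AAGATGGC in 0.895 and 0.427%, and the NRF1 word GCGCATGC in 0.262 and 0.113%. The TFAP2 word GCCNNNGGC was in 4.59 and 3.29%, the E-box CACGTG in 1.67 and 1.19%, and CAGGTG, bound by ZEB and SNAI factors, in 9.68 and 7.34%, with TAATTA as the last. Of these, the NRF1 word and CAGGTG did not pass against the flanks of the sites, at 0.216 and 9.47%, and TAATTA was below its flank. In the peaks with Pbx4 the NRF1 word, CAGGTG and TAATTA were below their flanks, which held them in 0.216, 8.61 and 4.01%. In the flanks CCCCGCCC was in 0.679% without Pbx4 and 0.339% with it. At the summits G and C made up 50.9% of the bases without Pbx4 and 46.4% with it, and 44.1 and 42.1% in the flanks. The part of base composition in these differences was not tested.

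The 13 words that were less frequent without Pbx4 included, after AP-1, several of factors known at enhancers. The forkhead word TGTTTAC was in 2.26% without and 3.74% with Pbx4, and the TEAD word ACATTCC in 1.71 and 3.34%. The RUNX word TGTGGTT was in 3.16 and 4.72%, and TTGCNNAA, bound by C/EBP proteins, in 4.75 and 6.98%. The NFI word TTGGCA was in 7.82 and 10.5% and the SOX word ATTGTT in 4.44 and 6.43%. Fisher's exact test gave adjusted p-values from 2.03e-14 to 1.29e-22 for these 6 words. The forkhead, TEAD, RUNX and NFI words were more frequent than in the flanks both without and with Pbx4. In the flanks the C/EBP word was in 4.60% without Pbx4 and 5.47% with it, and the SOX word in 6.61 and 7.22%. Without Pbx4 the C/EBP word did not pass against its flank. The SOX word was below its flank both without and with Pbx4. CAGCTG, an E-box, was in 7.28% and 7.29%. At least 1 of the 18 words more frequent than in the flank was in 6751 sites (52.1%), and 6205 sites held none of them.

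The search over all 8-letter words gave the same 2 leaders without a fixed list. Of 25459 words tested, 3455 (13.6%) were more frequent at the summits than in the flanks and 3139 less. The word of lowest p was AGAGGGCG, which shares at least 6 adjoining letters with the CTCF core, in 2.75% of the summits and 0.131% of the flanks (exact McNemar test, adjusted p = 4.92e-80). It was followed by CTGACTCA, which holds the AP-1 word, in 3.84 and 0.533%, and by CCACTAGA and GAGGGCGC, which also share at least 6 with the CTCF core. Among the 15 words of lowest p, AAAAATTA and TAAAAATA were less frequent at the summits, at 0.687 against 4.15% and 0.864 against 4.35%. Of the 100 leading words that were more frequent, 69 held at least 6 adjoining letters of the CTCF core and 9 at least 6 of AP-1, while 6.94 and 0.322% of all tested words did so.

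The pattern was then sought in endogenous HoxC5 replicate 1, whose peaks are no members. It had 406 distal peaks without Pbx4 and 1569 with it. The CTCF core was in 1 of the 406 (0.246%, interval 0.00624 to 1.36%) and in 0 of the 1569. Fisher's exact test found no difference between them (adjusted p = 0.385), but with the core in 1 peak it could hardly find one. The sites of this report held the core in 8.32%, a comparison across libraries whose lists differ in length and limit. Replicate 2, with 170 peaks, was not tested. AP-1 did differ in replicate 1, with 4.43% without Pbx4 and 23.2% with it, a difference of -18.8 points (Fisher's exact test, adjusted p = 3.92e-20). CCCCGCCC was in 5.42% without and 0.956% with Pbx4, and TAATGA in 1.72 and 4.78% (Fisher's exact test, adjusted p = 2.98e-06 and 0.0205). The forkhead, RUNX, NFI and C/EBP words were also less frequent without Pbx4 there, at 2.71 against 8.54%, 2.46 against 6.25%, 5.67 against 13.8% and 3.45 against 8.29%. The flanks of the 406 peaks held TAATGA in 5.67%, against 1.72% at their summits.

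In the other classes of overexpressed HoxC5 peaks the CTCF core was in a smaller share of the summits, but still above the flanks. It was in 0.930% of the gained peaks without Pbx4 within 1 kb of a TSS and 0.0596% of their flanks, and in 0.564 and 0.0806% for those with Pbx4 there. For the 1952 peaks that overlapped an endogenous one the shares were 0.666 and 0.102%. The gained distal peaks with Pbx4, at 0.900%, had it in 0.0411% of their flanks (exact McNemar test, adjusted p = 4.14e-83). The excess over the flank was therefore not particular to the sites without Pbx4. In the Pbx4 list the core was in 119 of 153551 summits (0.0775%), against 0.0469% of its flanks. Of the 1547 HoxC5 summits of the overexpressed library with a CTCF core, 1078 were the distal sites described here.

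By position, 54.3% of the sites lay in introns, 35.7% between genes and 10.0% in exons of any annotated gene. With Pbx4 the shares were 60.6, 32.8 and 6.53%. Exons thus held 3.5 percentage points more of the sites without Pbx4 (Fisher's exact test, adjusted p = 6.46e-37) and introns 6.37 points less (adjusted p = 7.56e-37). All sites were over 1 kb from the TSSs of protein-coding transcripts. Still, 9.01% lay within 1 kb of the TSS of a non-coding gene, against 5.45% with Pbx4 (Fisher's exact test, adjusted p = 3.1e-43). With all transcripts of protein-coding genes counted, 12380 of the 12956 sites would be left, and with the TSSs of all genes 11295. The sites were also more scattered, and 55.1% had another HoxC5 peak within 10 kb, against 65.9% with Pbx4 (Fisher's exact test, adjusted p = 3.08e-104). An example in a non-coding gene was the site in the exon of SNORD3B-2, a U3 small nucleolar RNA gene near GRAP, with a fold enrichment of 26.9. U3 genes have near-identical copies, so that the place of its reads is uncertain.

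The share of gained distal sites without Pbx4 was 41.2% on chromosome 19, 34.8% on chromosome 22, 31.0% on chromosome 17 and 29.3% on chromosome 16. These 4 also have the highest G and C content, from 44.8 to 48.4%. It was 20.3% on chromosome 8 and 20.5% on chromosome 2, the lowest, and 22.9% on chromosome 20, whose content of 44.1% comes next. The sites were densest on chromosome 17, at 7.1 per Mb of known sequence, and sparsest on X, at 2.58 per Mb.

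Sites were assigned to the nearest protein-coding TSS. Of 19756 protein-coding genes, 6541 (33.1%) were nearest to at least 1 site, with a median of 0 sites per gene and 4.27 sites per Mb. A gene with a long territory holds more sites, so that densities are given too, and lists are described by counts with no test. The nearest gene need not be the one a site acts on.

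The HOX clusters were dense in sites. Of the 39 HOX genes, 15 were nearest to a site, close to the background of 33.1%, but their 38 sites lay in a territory of 0.828 Mb, a density of 45.9 per Mb. Gained distal peaks with Pbx4 were dense there too, at 39.9 per Mb against 12.8 per Mb over all genes. The clusters held 33 of them, so that 53.5% of the gained distal peaks lacked Pbx4, against 24.98% over all genes. The HOXA cluster on chromosome 7 held 24 of the sites and the HOXB cluster on chromosome 17 held 12, while HOXC and HOXD held 1 each, and no site was nearest to HOXC5 itself. None of the 38 held the exact CTCF core and 1 held the AP-1 word, against 8.32 and 11.3% of all sites. With 1 mismatch allowed, a site near HOXA13 and a site near HOXB8 did hold the CTCF core, with fold enrichments of 7.28 and 5.75. They were among the HOX, PBX and MEIS sites of lowest q-value, and the share over all 38 was not counted. The median fold enrichment was 5.27 in HOXA and 5.21 in HOXB, and the median gap to a Pbx4 peak was 853 and 1428 bp. The strongest by q-value, at HOXA3, had a fold enrichment of 13.6 and lay in an exon 1579 bp downstream of a TSS of the gene. Next by q-value came sites near HOXB2 and HOXB13, with fold enrichments of 12.4 and 9.91. HOXB13 encodes a partner of the androgen receptor in the prostate, and its site lay 28.2 kb upstream. HOXA13 had the most sites of a HOX gene, 7, and HOXA10 had 5.

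Of the 11 TALE cofactor genes, 5 were nearest to a site, with 13 sites in all, 3.33 per Mb, and 19.7% without Pbx4. MEIS2 had 5, and MEIS1 and PKNOX2 had 3 each. The PKNOX2 sites had fold enrichments from 8.08 to 12.9 and no gained distal peak with Pbx4 was nearest to that gene.

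Integrins and laminins, the receptors and matrix proteins of cell adhesion, had a site in 17 of 19 genes, 14.4 per Mb, with a median of 2. The share without Pbx4 was 21.4%, below the overall one, since peaks with Pbx4 were dense there too, at 53.1 per Mb. Of their 37 sites, 11 held the AP-1 word, where 1465 of all 12956 sites (11.3%) did. Integrin β3 gene ITGB3 had a site with a fold enrichment of 14.1 in an intron, ITGA2 one of 15.2 and LAMC1 one of 15.1, and ITGA1 had 5 sites against 1 peak with Pbx4.

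Axon guidance genes had a site in 33 of 35, with 169 sites and a median of 4, at 4.6 per Mb and 25.5% without Pbx4, near the values over all genes. Cadherins had 10 of 15 genes with 83 sites, at 3.42 per Mb. Both lists hold genes in wide gene-poor stretches. EPHA3, an ephrin receptor gene, had 21 sites against 9 peaks with Pbx4, while NRP1 had 10 against 48 and EFNA5 6 against 48.

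Forkhead genes had 15 of 22 with a site, 7.31 per Mb and 27.3% without Pbx4, led by FOXA2 with 11 sites, one of them with a fold enrichment of 21.9 at 87.6 kb downstream of the TSS. TGF-β pathway genes had 20 of 31, with 68 sites, 6.46 per Mb and 18.1% without Pbx4, among them INHBA with 8, SMAD6 with 7 and SMAD3 with 5, of which 1 held the CTCF core. TEAD and YAP genes had 10 of 18, at 7.37 per Mb and 18.5%. The AP-1 family had 7 of 16, with 21.0% without Pbx4, and JUN had 2 sites against 21 peaks with Pbx4. Genes of prostate luminal identity and androgen response had 10 of 22, with 22.0%, including STEAP1 with 4 sites, the strongest at a fold enrichment of 14.3. EMT regulators had 9 of 17, with 16.0%, the lowest of the 11 lists. TWIST1, a regulator of mesenchymal identity, had a site with a fold enrichment of 19.7 that lay 145 kb downstream, in an intron of HDAC9.

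The genes nearest to the most sites lay in wide gene-poor stretches. TENM3, the gene of a teneurin of neural circuits on chromosome 4, had 38 sites against 10 peaks with Pbx4 (79.2% without) in a territory of 2.89 Mb. AP-1 was in 12 of its sites, and in 11.3% of all sites. ADGRL3, a latrophilin gene on the same chromosome, had 29 against 50. CSMD3 on chromosome 8 had 28 against 11 (71.8%), PIK3C3 on chromosome 18 had 23 against 24, and EPHA3 on chromosome 3 and REEP3 on chromosome 10 had 21 each. TENM3, CSMD3 and EPHA3 thus each had more gained distal peaks without Pbx4 than with it, where 24.98% lacked it over all genes. Picking genes by their number of sites without Pbx4 favours such a share. Among genes with fewer sites, ITGA1 and HOXA10 had a share of 83.3% each, with 5 sites against 1 peak with Pbx4. They were also picked after their counts were seen, so they are examples only.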

How the data were processed

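Peak lists of ChIP-Seq in PC-3 cells were used, 1 each for the 4 ChIP libraries. The 4 input libraries were not used here. Single-end reads were mapped by the authors with BWA-MEM (hg19) and filtered for mapping quality, SAMtools was used to discard duplicates, and MACS2 called the peaks. The MACS2 version and the control of each call are not given in the sources used here. The deposited lists hold, per peak, a score, the fold enrichment as a ratio over local background, the summit, and p and q as −log10 values, all as the authors' peak caller gave them. They hold no read totals, so depth and its precision are unknown.

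Peaks overlapped when they shared at least 1 bp. TSSs and genes came from GENCODE 44 lifted to GRCh37, the build of the files, and protein-coding TSSs were those of protein-coding transcripts. Sequence was read from GRCh37 within 50 bp of summits and 1 kb to their right. Words were sought on both strands and tested with two-sided exact McNemar and Fisher's exact tests, with Benjamini-Hochberg adjustment over the 30 words, the 7 position classes or all 8-letter words in at least 20 windows, and called at an adjusted p below 0.05. A planned class of repeat-masked summits was not run. The tests were tested on simulated data.

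The members, words and gene lists were chosen with earlier results of these data known. Named were the 12 sites of lowest q, the 5 of highest fold, those nearest to and farthest from a TSS, sites of HOX, PBX and MEIS genes, the 5 genes with most sites with ties, and leading sites of each gene list. Other genes of the lists were named for their counts after these were seen. Alternatives were other definitions of overlap, distance, windows, flanks and limits of fold and q, and each endogenous replicate left out. Python 3.11.15 was used with pysam 0.24.0 for sequence, pandas 2.3.3 and numpy 2.4.6 for tables, scipy 1.17.1 and statsmodels 0.14.6 for tests and matplotlib 3.10.9 for plots.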

Additional observations from a re-analysis of the deposited data

How the results depend on the processing

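The number of sites was 12957 to 13051 with either endogenous replicate left out and 8914 to 16917 under the other alternatives, except that it rose to 23232 (44.8% of the gained distal peaks) when only as many Pbx4 peaks of lowest q were used as the HoxC5 list holds, since fewer peaks then counted as Pbx4. With that list, chosen for the words after the data were seen, the CTCF core was still 5.12 points more frequent without Pbx4 and AP-1 -13.6 points (Fisher's exact test, adjusted p = 3e-299 and 4.03e-285). Over all alternatives the difference between sites without and with Pbx4 was 4.29 to 20.1 points for the CTCF core and -24.8 to -9.59 points for AP-1. The 20.1 points are those of the looser core with up to 1 mismatch, chosen after the data were seen. No difference that passed its test with the settings used above changed sign under an alternative. In 14 cases a word gained a call that it lacked above. Among them were TGATTGAT within the classes of fold and TGATTTAT below the flank with windows of 100 bp, at -0.332 points. CAGGTG, at 0.208 points over the flank above, was called below it with windows of 100 bp, at -1.17 points. The excess over the flank lost its call for the STAT word with windows of 25 bp on each side, with either other flank and at a fold of at least 5, for the CRE word at a fold of at least 5 and for the Meis word with windows of 100 bp, and the difference from sites with Pbx4 lost it for TAATTA with windows of 25 bp. Counts of words, of position classes, of 8-letter words and of genes stayed within 1.5 times their value. No paired analysis was possible because each overexpressed condition has 1 library and the endogenous inputs, which share replicate numbers with the endogenous HoxC5 libraries, were not used here. The depth of each library is unknown, and a site without a Pbx4 peak may be one where Pbx4 was below the limit of the call.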

Other observations

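Over the whole overexpressed HoxC5 list, promoters included, words differed in how often a summit that held them lacked Pbx4. Of all peaks 32.3% lacked it, and of the gained peaks within 1 kb of a TSS 8391 lacked it and 4965 had it. The share was 75.1% (exact 95% interval 72.9 to 77.3%) for the 1547 summits with the CTCF core, 69.5% for CCCCGCCC of SP and KLF factors, 67.0% for the ETS word, 61.7% for the NRF1 word, 57.8% for the YY1 word and 51.0% for the TFAP2 word. It was 11.8% for the 13758 summits with AP-1, 15.8% for TGATTTAT, 16.4% for the TEAD word and 17.6% for the forkhead word. The part of promoters in these shares was not tested. Of the summits without Pbx4, 231 of 1282 with CCCCGCCC, 44 of 364 with the ETS word, 34 of 129 with the NRF1 word and 116 of 279 with the YY1 word were gained distal sites, whereas 1078 of 1162 with the CTCF core were.

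The 8-letter word ATGAATCA was not in the fixed list. It holds TGAATCA, which differs by 1 letter from TGAGTCA, the complement of the AP-1 word. ATGAATCA was in 2.57% of the distal summits without Pbx4 and 0.332% of their flanks (exact McNemar test, adjusted p = 1.41e-54). ATGATTCA, whose complement also holds TGAATCA, was in 2.06 and 0.378%. These words were picked after their values were seen.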
